A study of Mus musculus with 31 samples.

Results

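Hnrpdl, whose current symbol is Hnrnpdl, encodes hnRNP DL, and the inclusion of 2 of its exons was measured in the cortex of 31 mice that model Huntington's disease (HD) or are their wild-type (WT) controls. Members were found by gene symbol. All splicing events labelled Hnrpdl were taken, 2 of the 1922 events listed over the series, and both were listed in every set of files (2 of 1743 events in the R6/2 set, 2 of 1785 in the Q150 set and 2 of 1839 in the Q175 set). The gene was chosen by its measured ratios in mutant and WT mice, so every value of the 2 events that sets mutant against WT mice, or homozygous against heterozygous mice, is a description with no test.

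hnRNP DL is a nuclear RNA-binding protein of the hnRNP D family, with a pair of RNA recognition motifs followed by a C-terminal region rich in tyrosine and glycine, and it takes part in transcription and alternative splicing. Its pre-mRNA is itself alternatively spliced at 2 places. A coding exon that holds most of the tyrosines of the C-terminal region can be left out, which gives a shorter protein, and an exon behind the stop codon, in the 3′ untranslated region (3′UTR), can be put in, which gives an RNA of the kind that nonsense-mediated decay (NMD) removes. Inclusion of the 3′UTR exon is known as a way in which the protein limits its own level.

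The measurement was RASL-seq, in which pairs of DNA probes anneal to RNA on the 2 sides of a known exon junction, are ligated to each other and are counted by sequencing. For each event, short counts come from the junction that skips the exon and long counts from a junction of the included exon. Exclusion is the percentage of an event's counts that are short. Because the probe pairs of the 2 junctions need not ligate equally well, exclusion orders mice for an event and is not the true share of RNA molecules.

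The mice were untreated, and the RNA came from the cortex of 1 hemisphere. R6/2 HD mice (3 mice) carry a transgene with exon 1 of mutant human huntingtin under the human promoter beside their normal mouse huntingtin alleles (B6CBA-Tg(HDexon1)62Gpb/3J), and 3 mice labelled wild type were their controls. Knock-in mice carry the expanded repeat in the mouse huntingtin gene itself, under its own promoter, with 150 glutamines (Q150) or 175 glutamines (Q175). The paper lists a separate strain for each knock-in line. They had the expansion on 1 allele and 7 glutamines on the other (HET, 4 mice of Q150 and 4 of Q175) or on both alleles (HOMO, 4 mice of Q150 and 3 of Q175), and the 10 knock-in WT mice had 7 glutamines on each allele. Ages were 3 months in the R6/2 mice, 7 months in the Q150 mice and 18 months in the Q175 mice, so that line and age cannot be told apart. In whole tissue, a change in the share of a cell type and a change of splicing or RNA level within cells cannot be told apart either.

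Libraries held 2171709 to 5256516 junction counts. The Hnrpdl events were deeply counted, with 4978 to 15895 short plus long counts per mouse for the first event and 5725 to 17345 for the second. The lowest short count of the first event was 66, and exact binomial 95% intervals of single mice reached at most 1.07 percentage points to either side for the first event and 1.25 for the second. These intervals cover counting error only, since no molecular identifiers are stated. The 47 pairs of mice of 1 group all differed beyond sampling noise, with a lowest chi-square per degree of freedom of 4.26.

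The files place event 9429 at chr5:100465214-100465880 and event 8890 at chr5:100464003-100465122. These positions lie outside the gene on GRCm38, the build called mm10 in the submitters' processing notes, where Hnrnpdl runs from 100033577 to 100039936 on the minus strand of chromosome 5. Of 1872 events whose gene was found in the RefSeq table, 309 (16.5%) overlapped that gene on GRCm38, so the positions of the files were not used as GRCm38 positions. The exons were instead named by spacing. All 4 bounds of the 2 events fell on exon ends of Hnrnpdl (GENCODE M21) under 1 common offset and under no other, and under it an annotated internal exon lay within each event.

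Event 9429 so corresponds to the coding exon at chr5:100036481-100036651 (GRCm38, minus strand), 171 bases long and therefore in frame, between introns of 210 and 285 bases. Event 8890 corresponds to the exon at chr5:100035635-100035739, 105 bases long, which lies behind the stop codon and between introns of 364 and 650 bases. Both events share the 92-base exon between them (chr5:100036104-100036195), which holds the stop codon. With the 3′UTR exon left out, the last exon junction lies 21 bases behind the stop codon, and with it put in, 126 bases behind it. A junction far behind the stop codon is what marks an RNA for NMD, and the annotated transcripts that hold the 3′UTR exon are labelled as NMD targets or as retaining an intron.

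**Figure D1:**
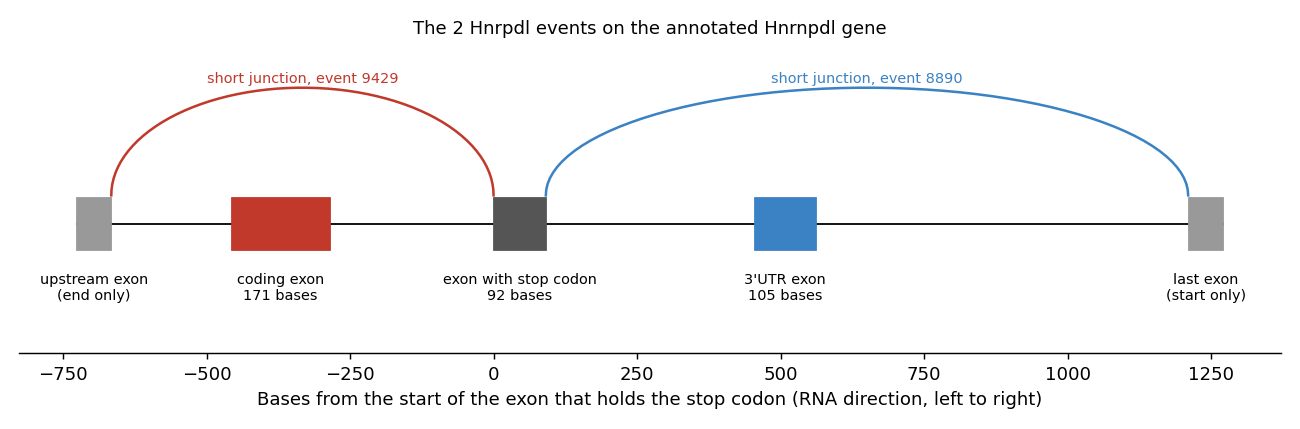
Map of the 2 events on Hnrnpdl in the direction of the RNA, in bases from the start of the 92-base exon with the stop codon, drawn to scale except for the outer exons, of which only an end is shown. Arcs are the short junctions, which leave out the coding exon of 171 bases (red) or the 3′UTR exon of 105 bases (blue), and both end on the 92-base exon.

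The sequence of the coding exon is shown because it is what exclusion in event 9429 removes. Capitals mark the tyrosine codons TAT and TAC in the reading frame of the gene. The exon holds 15 tyrosine codons among its 56 whole codons (26.8%), and these are 15 of the 24 tyrosine codons of the 420-codon reading frame (62.5%). The sequence is read 5′ to 3′ on the minus strand of GRCm38 (RefSeq GRCm38.p6).
Hnrnpdl coding exon, chr5:100036481-100036651: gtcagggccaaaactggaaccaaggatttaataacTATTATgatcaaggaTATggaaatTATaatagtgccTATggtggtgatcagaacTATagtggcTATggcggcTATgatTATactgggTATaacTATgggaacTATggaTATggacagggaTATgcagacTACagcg

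The splice sites of both exons, the ends whose use the 2 events count, are shown with exon bases in capitals and intron bases in lower case.
Coding exon, acceptor, chr5:100036649-100036675: aaccttcgttgtgcattgtttcagGTC
Coding exon, donor, chr5:100036475-100036483: GCGgtaaga
3′UTR exon, acceptor, chr5:100035737-100035763: ttataccttgtttgtacccgccagCGG
3′UTR exon, donor, chr5:100035629-100035637: GTGgtatgg
All 4 sites have the usual AG before and GT behind the exon.

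Exclusion of the coding exon was low in WT cortex and higher in every mutant group. In R6/2 WT mice exclusion of event 9429 was 0.948%, 1.39% and 0.861%, and in R6/2 HD mice it was 23.9%, 19.4% and 22.5%. The group means were 1.06% ± 0.282 (SD, n = 3) and 21.9% ± 2.31 (SD, n = 3), a 20.6-fold difference. On the scale of the fit, log2 of short over long, the change was 4.72 ± 0.18 (SE), which ranked 1 of 1743 events by size. All 3 HD mice lay above all 3 WT mice, where 28.6% of all events were higher in HD mice without overlap.

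In the knock-in lines exclusion of the coding exon was higher with 1 mutant allele and higher again with 2. Q150 WT mice had 1.06%, 1.14%, 1.04%, 0.855% and 1.11%. Q150 HET mice had 3.29%, 3.02%, 3.60% and 2.84%, and Q150 HOMO mice had 6.01%, 7.55%, 5.40% and 4.03%. Neither mutant group overlapped the WT mice, and the HET and HOMO mice did not overlap each other. The means were 1.04% ± 0.112 (SD, n = 5), 3.19% ± 0.334 (SD, n = 4) and 5.75% ± 1.46 (SD, n = 4). The log2 change against WT was 1.64 ± 0.16 (SE) in HET mice, ranked 1 of 1785, and 2.50 ± 0.16 (SE) in HOMO mice, ranked 2. HOMO lay 0.86 ± 0.17 (SE) above HET. Over all events, 5.94% were higher without overlap in HET against WT mice, 14.8% in HOMO against WT and 7.17% in HOMO against HET.

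The Q175 mice gave the same order of genotypes. Exclusion was 1.47%, 1.56%, 1.75%, 1.38% and 1.22% in WT, 2.51%, 2.36%, 2.68% and 2.45% in HET and 4.91%, 5.02% and 4.66% in HOMO mice. Again no 2 of the 3 genotypes overlapped. The means were 1.48% ± 0.200 (SD, n = 5), 2.50% ± 0.134 (SD, n = 4) and 4.86% ± 0.184 (SD, n = 3). The log2 change against WT was 0.78 ± 0.11 (SE) in HET mice, ranked 24 of 1839, and 1.78 ± 0.12 (SE) in HOMO mice, ranked 2. HOMO lay 0.99 ± 0.13 (SE) above HET. The shares of all events that were higher without overlap were 2.23% in HET against WT, 9.79% in HOMO against WT and 7.18% in HOMO against HET.

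The 3′UTR exon behaved differently. Its exclusion was high in WT cortex and lower, that is, the exon was put in more often, in R6/2 HD mice. R6/2 WT mice had an exclusion of 88.4%, 88.5% and 88.3% for event 8890, while R6/2 HD mice had 59.3%, 71.0% and 64.1%. The means were 88.4% ± 0.128 (SD, n = 3) and 64.8% ± 5.89 (SD, n = 3), so that inclusion was 11.6% and 35.2%, a 3.03-fold difference. The log2 change of short over long was -2.04 ± 0.15 (SE), ranked 26 of 1743 by size and 5 among the lower events. All 3 HD mice lay below all WT mice, where 13.0% of all events were lower without overlap.

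Among the knock-in groups a lower exclusion of the 3′UTR exon was seen in Q150 HOMO mice. Q150 WT mice had 85.8%, 87.0%, 85.7%, 86.6% and 85.3%, and Q150 HET mice had 86.0%, 86.1%, 84.5% and 87.4%. Q150 HOMO mice had 82.5%, 80.2%, 82.3% and 80.6%, all below every WT and every HET mouse, while HET and WT mice overlapped. WT mice had a mean of 86.1% ± 0.703 (SD, n = 5), HET mice 86.0% ± 1.17 (SD, n = 4) and HOMO mice 81.4% ± 1.16 (SD, n = 4). The log2 change was -0.01 ± 0.09 (SE) in HET and -0.50 ± 0.09 (SE) in HOMO mice against WT, and -0.49 ± 0.10 (SE) in HOMO against HET. The change in HOMO against WT mice ranked 563 of 1785 by size and 116 among the lower events. Of all events, 3.31% were lower without overlap in HOMO against WT mice and 1.34% in HOMO against HET mice.

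In Q175 mice the 3 genotypes overlapped for the 3′UTR exon. Exclusion was 88.6%, 90.0%, 85.2%, 86.7% and 85.8% in WT, 87.4%, 89.7%, 89.5% and 90.4% in HET and 88.2%, 87.0% and 85.3% in HOMO mice. The means were 87.2% ± 1.99 (SD, n = 5), 89.3% ± 1.31 (SD, n = 4) and 86.8% ± 1.45 (SD, n = 3). The log2 change against WT was 0.27 ± 0.11 (SE) in HET and -0.06 ± 0.11 (SE) in HOMO mice. HOMO lay at -0.34 ± 0.12 (SE) against HET, with 2 of 3 HOMO mice below all HET mice, and at -0.11 with the series of mouse numbers as a term. Whether the change in this exon differs between the lines was not tested.

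**Figure D2:**
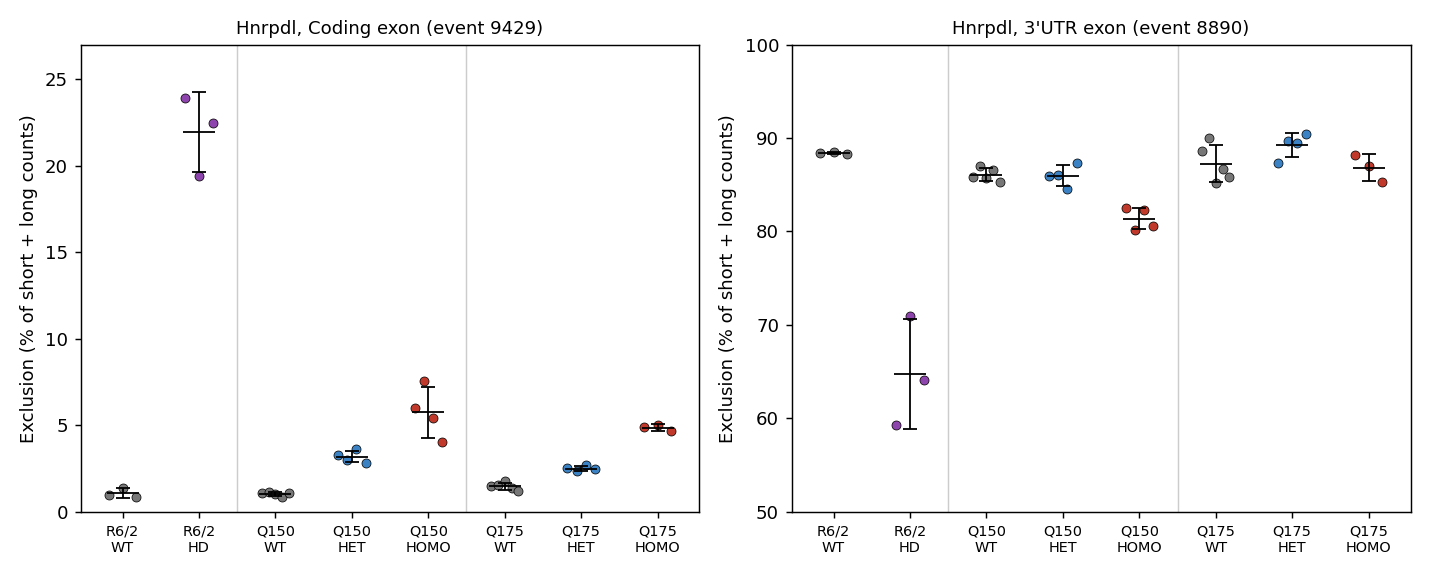
Exclusion of the coding exon (event 9429, left, axis from 0) and of the 3′UTR exon (event 8890, right, axis from 50%) in each of 31 mice, in percent of short plus long counts. Points are mice, lines are group means with SD, and grey lines part the sets. The coding exon lies at 21.9% in R6/2 HD mice and at 5.75% and 4.86% in Q150 and Q175 HOMO mice, while for the 3′UTR exon all R6/2 HD (mean 64.8%) and Q150 HOMO mice (mean 81.4%) lie below the WT mice of their set.

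By mean exclusion of the coding exon the groups run from Q150 WT, R6/2 WT and Q175 WT through Q175 HET, Q150 HET, Q175 HOMO and Q150 HOMO to R6/2 HD. Neighbours in this order overlap among the WT groups, R6/2 WT with both others, and between Q175 HOMO and Q150 HOMO mice. For the 3′UTR exon the order from low to high is R6/2 HD, Q150 HOMO, Q150 HET, Q150 WT, Q175 HOMO, Q175 WT, R6/2 WT and Q175 HET, and from Q150 HET upward each neighbour overlaps the next.

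Seen in the same mouse, the coding exon lay above WT in every mutant mouse, and the 3′UTR exon lay below WT in the R6/2 HD and Q150 HOMO mice, at 0 or above in Q175 HET mice and on both sides of 0 in the others. R6/2 HD mice lay 4.89, 4.50 and 4.77 above the WT mean for event 9429 on the log2 scale and at -2.39, -1.64 and -2.09 for event 8890. The HD mouse with the highest exclusion of the coding exon had the lowest exclusion of the 3′UTR exon, and the order was kept through all 3 mice, too few for a test. In Q150 HOMO mice the pairs were 2.60 and -0.39, 2.96 and -0.61, 2.44 and -0.42, and 2.00 and -0.58. Q175 HOMO mice, at 1.79, 1.83 and 1.71 for the coding exon, had 0.11, -0.05 and -0.25 for the 3′UTR exon. The 4 Q150 HET mice, at 1.48 to 1.83 for the coding exon, ran from -0.18 to 0.16, and the 4 Q175 HET mice, with the smallest values for the coding exon (0.70 to 0.88), lay at 0.00, 0.34, 0.30 and 0.45.

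**Figure D3:**
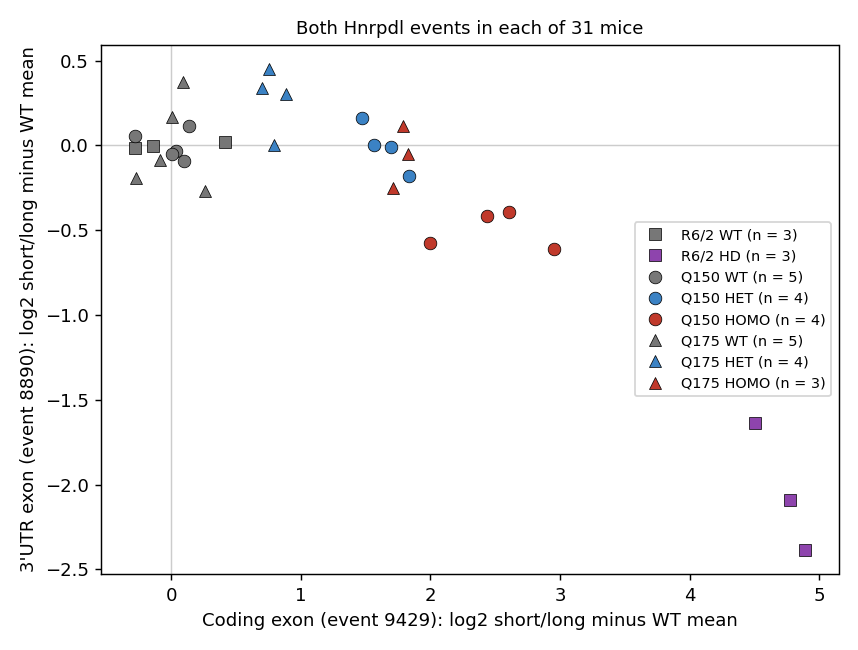
Each of 31 mice by its log2 short-to-long ratio minus the mean of the WT mice of its set, for the coding exon (x axis) and the 3′UTR exon (y axis). Colours mark genotypes and shapes mark lines. R6/2 HD mice lie between 4.50 and 4.89 on the x axis and between -2.39 and -1.64 on the y axis, the Q175 HOMO mice lie between -0.25 and 0.11 on the y axis, and the Q175 HET mice between 0.00 and 0.45.

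Within groups the 2 events were not shown to move together. Deviations from the group means of log2 short over long had Pearson's r = -0.18 and Spearman's rho = -0.17 over 31 mice (permutation of mice within groups, two-sided, p = 0.305 and 0.396, adjusted over the 4 sets of mice compared to 0.570 and 0.754). In the Q150 set r was -0.28 and rho -0.32 (n = 13, exact permutation p = 0.428 and 0.338, adjusted 0.570 and 0.754), and in the Q175 set r was 0.10 and rho 0.12 (n = 12, exact permutation p = 0.834 and 0.754, adjusted 0.834 and 0.754). With the series of mouse numbers also removed, r in the Q150 set was -0.17 and rho -0.13 (exact permutation p = 0.626 and 0.704). In the R6/2 set r was -0.43 and rho -0.20 (n = 6, exact permutation p = 0.250 and 0.694, adjusted 0.570 and 0.754). Without the 2 mice farthest from the median of the coding exon r was -0.22, -0.47, 0.40 and -0.91 in the 31 mice and the Q150, Q175 and R6/2 sets (exact or resampled permutation p = 0.302, 0.174, 0.282 and 0.167). The R6/2 value then rests on 4 mice, of which only the 3 HD mice can change places within their group. The smallest p the test then allows is 0.167. With deviations of exclusion in percent in place of log2, r was -0.66 and rho -0.27 over 31 mice (permutation p = 0.0976 and 0.228). In the R6/2 set r was -0.99 and rho -0.77 (n = 6, exact permutation p = 0.167 and 0.306), in the Q150 set r was -0.24 and rho -0.31 (exact permutation p = 0.619 and 0.375), and in the Q175 set r was 0.13 and rho 0.08 (exact permutation p = 0.735 and 0.840). On the percent scale the 3 R6/2 HD mice had the largest spread of all groups in both events (SD 2.31 and 5.89). The SD in R6/2 WT mice was 0.282 and 0.128. On that scale r of the R6/2 set thus rests almost wholly on the 3 HD mice, too few for a test.

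The junction counts show which form of the RNA changed. As CPM, junction counts scaled to a library total of 1000000, the short junction of the coding exon had a mean of 25.7 in R6/2 WT and 411 in HD mice, in which it ran from 394 to 430, while the long junction was 2411 in WT and 1474 in HD mice. For the 3′UTR exon it was the long junction that was higher, 298 in WT and 711 in HD mice (694 to 723), and the short junction, which gives the RNA with the plain 3′UTR, was 2267 in WT and 1345 in HD mice. In R6/2 HD mice the junctions of the included coding exon and of the skipped 3′UTR exon thus stood lower, and the other junction of each event stood higher.

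Short plus long counts of event 9429 averaged 2437 ± 156 CPM in R6/2 WT mice (SD, n = 3), and in R6/2 HD mice they were 22.7% lower at 1885 ± 193 (SD, n = 3). All 3 HD mice (1795, 2106 and 1754) lay below the WT mice, where 17.4% of events were lower without overlap. For event 8890 the sums were 2565 ± 212 (SD, n = 3) and 2056 ± 319 (SD, n = 3) CPM, and HD mouse 868, at 2393, lay within the WT range. Such values are shares of all counted junctions, and probes of different events cannot be set against each other. Since the probe pairs of short and long junctions need not ligate equally well, a sum can also move with their ratio. Whether the level of the RNA differed was not tested.

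In Q150 mice the short junction of the coding exon was 26.0 CPM in WT, 88.2 in HET and 141 in HOMO mice, and in Q175 mice it was 38.0, 78.6 and 129. For WT, HET and HOMO the long junction of the coding exon was 2471, 2697 and 2319 CPM in the Q150 set and 2524, 3064 and 2523 in the Q175 set. The long junction of the 3′UTR exon was 378, 420 and 521 CPM in the same order in the Q150 set and 329, 359 and 411 in the Q175 set. Its short junction was 2340, 2584 and 2281 in Q150 mice and 2293, 3034 and 2696 in Q175 mice, so that in Q175 HOMO mice both junctions stood above the WT mean and their ratio near it.

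**Figure D4:**
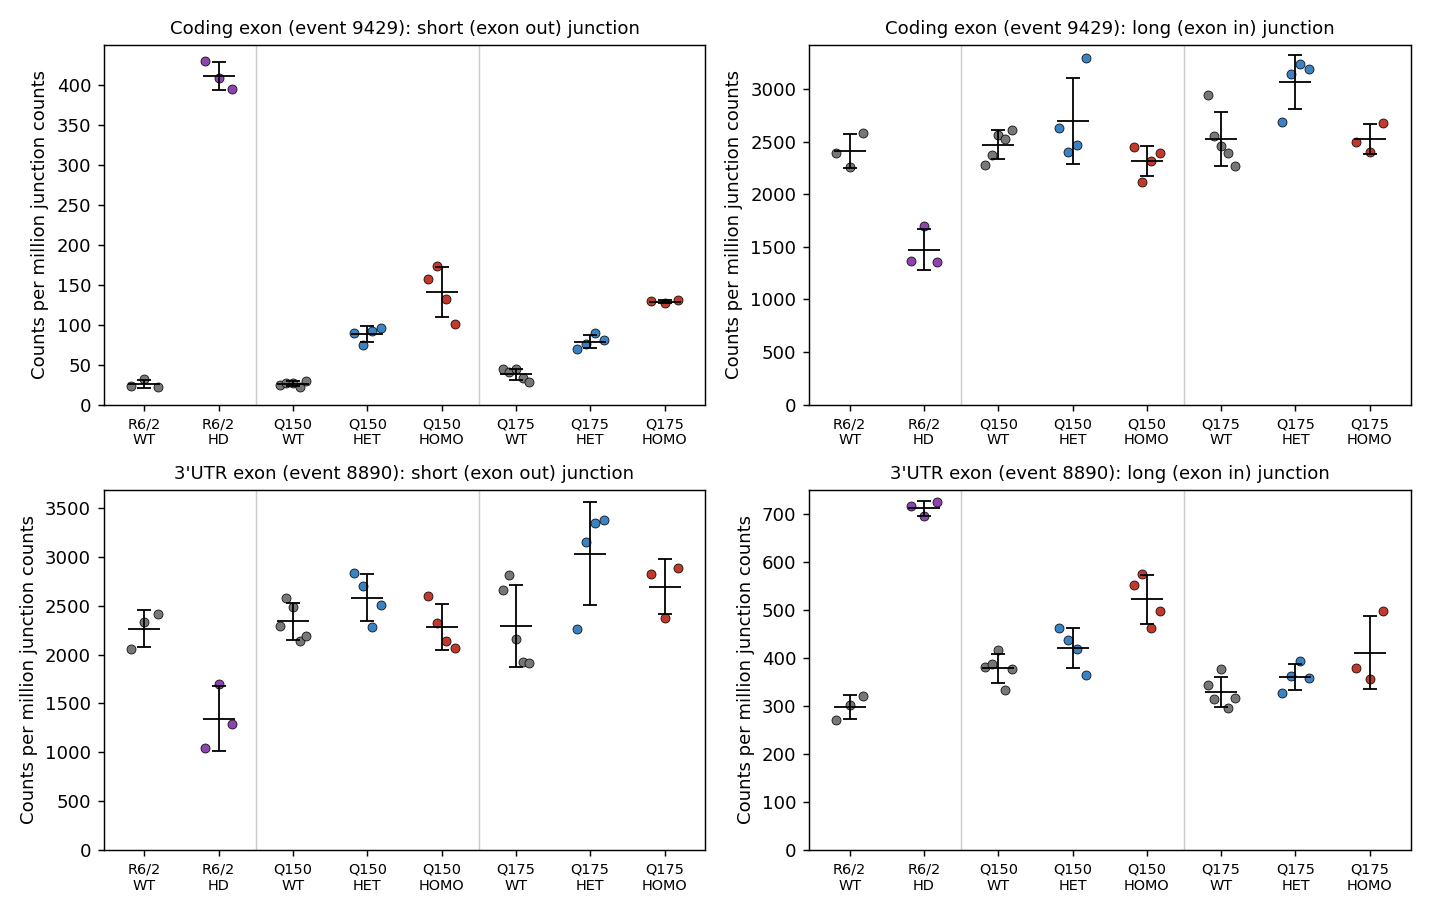
CPM (junction counts scaled to a library total of 1000000) for the short junction (left) and the long junction (right) of the coding exon (upper row) and the 3′UTR exon (lower row) in each mouse, with group mean and SD. All axes start at 0. In R6/2 HD mice the short junction of the coding exon (mean 411) and the long junction of the 3′UTR exon (mean 711) are above WT, and the other junction of each event is below it.

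Both WT sets of knock-in mice were also compared with each other. That contrast did not choose the gene, but the same WT values entered the contrasts that did. Its p-values are therefore not independent of the choice. Exclusion of the coding exon was 1.48% ± 0.200 (SD, n = 5) in WT mice of the Q175 set and 1.04% ± 0.112 (SD, n = 5) in WT mice of the Q150 set, a difference of 0.435 percentage points. All 5 Q175 WT mice lay above all 5 Q150 WT mice, where 2.08% of the 1731 events listed in both sets did so. By a two-sided exact permutation test p was 0.00794, which is the smallest value possible with 5 mice in each group, and 0.0159 after adjustment over the 2 events. In the fit over all events the log2 change was 0.50 ± 0.14 (SE) and the adjusted p by limma 0.0501, on the border of the threshold that 2.31% of events passed. With 1 mouse left out the log2 change ran from 0.43 to 0.57, and the adjusted p was 0.0427, 0.0323 or 0.0383 without knock-in WT replicate 2, 5 or 10 and from 0.0729 to 0.162 when each of the other mice was left out, the highest without replicate 8. It was 0.0883 with each mouse centred on its median event and 0.141 with no variance trend. The 3′UTR exon gave 87.2% ± 1.99 and 86.1% ± 0.703 (SD, n = 5 each), with an exact permutation p = 0.270 (adjusted 0.270), a log2 change of 0.16 ± 0.10 (SE) and a limma adjusted p of 0.496. Sets differ in mouse line and strain, in age, in file set and in the series of mouse numbers, so these cannot be told apart.

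In the Q150 set the mouse numbers form 2 series, 1 to 80 (8 mice) and 402 to 421 (5 mice), and each genotype has mice in both. With genotype in the model, exclusion of the coding exon was lower in the high series, with a log2 difference of -0.31 ± 0.11 (SE) and an adjusted p by limma of 0.0542, where 15.2% of events passed. With 1 mouse left out the log2 difference ran from -0.39 to -0.22, and the adjusted p was 0.0225 or 0.0492 without knock-in WT replicate 5 or Q150 HET replicate 2 and from 0.0530 to 0.187 when each of the other mice was left out. The highest values, 0.187 and 0.186, came without Q150 HOMO replicate 2 and replicate 4, and the adjusted p was 0.147 with no variance trend. The 3′UTR exon gave 0.05 ± 0.07 (SE) and a limma adjusted p of 0.711. Within the low series the means of the coding exon were 1.08%, 3.31% and 6.78% in WT, HET and HOMO mice (3, 3 and 2 mice), and within the high series 0.981%, 2.84% and 4.71% (2, 1 and 2 mice), in the same order. Those of the 3′UTR exon were 86.2%, 85.5% and 81.3% in the low series and 85.9%, 87.4% and 81.4% in the high series, with HOMO lowest in both. In the R6/2 set the WT mice have the numbers 3, 4 and 6 and the HD mice 860, 868 and 869. Genotype and mouse number cannot be told apart there. In the Q175 set only WT mice were in both series. The WT mice of the low series, which holds all HET mice, had a mean of 1.59% for the coding exon, and those of the high series, which holds all HOMO mice, 1.30%.

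Cell type markers on the panel were few. Of the 8 neuronal markers used, 4 were measured (Camk2b, Gria2, Grin1 and Syt1). Their summed counts ran from 34745 to 38746 CPM in R6/2 WT and from 27492 to 32325 in R6/2 HD mice. In the Q150 set they ran from 35517 to 42955 in WT, from 30715 to 38919 in HET and from 31169 to 35649 in HOMO mice, and in the Q175 set from 31766 to 39907, from 32318 to 38320 and from 33186 to 38372. All R6/2 HD mice thus lay below the R6/2 WT mice, the Q150 mutants overlapped WT with lower means (34380 in HET and 33072 in HOMO against 39106), and the Q175 mutants lay within the range of WT. Oligodendrocyte markers (Mag and Mbp in the R6/2 set, with Mobp in the knock-in sets, of 5) ran from 10879 to 13272 CPM in R6/2 WT and from 9001 to 13066 in HD mice. In the Q150 set they ran from 8102 to 13394, from 9548 to 16675 and from 8160 to 14621 in WT, HET and HOMO, and in the Q175 set from 8835 to 11001, from 7830 to 9079 and from 6714 to 11418. Every mutant group overlapped its WT mice, with lower means in R6/2 HD (10552 against 12447), Q175 HET (8277 against 10191) and Q175 HOMO mice (8644 against 10191), and means of 11191, 12817 and 11198 in Q150 WT, HET and HOMO. Of the vessel markers Pecam1 was on the panel, at 45.8 to 80.6 CPM in R6/2 WT and 33.4 to 57.6 in HD mice. In the Q150 set it was 42.1 to 97.3 in WT, 49.5 to 131 in HET and 52.4 to 138 in HOMO mice (mean 64.7 in WT and 98.8 in HOMO), and in the Q175 set, where it had 2 events, 1129 to 1347, 942 to 1145 and 973 to 1177 (means 1236, 1058 and 1081). Each mutant group overlapped its WT mice. Of the astrocyte and microglia markers none was on the panel. All measured markers were above 0 in every mouse. The part of these markers in the differences of the Hnrpdl events was not tested.

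Other hnRNP genes were taken from a list of 30 hnRNP and related genes, of which 17 events of 12 genes were on the R6/2 panel, 16 events of 11 genes on the Q150 panel and 19 events of 12 genes on the Q175 panel. In R6/2 HD mice 7 of 17 events passed (limma adjusted p under 0.05), 6 with higher and 1 with lower exclusion, where 28.6% of all events passed. With no variance trend 4 of 17 passed, and the share of all events under that setting is not given here. The median log2 change of the list was 0.31, beside 0.18 over all events. In Q150 HOMO mice 6 of 16 passed, 5 higher and 1 lower, where 23.9% of all events passed, and the medians were 0.09 and 0.19. In Q150 HET mice 2 of 16 passed, both higher (3.47% of all events), with medians of 0.10 and 0.10. That count was 1 without knock-in WT replicate 2 and 0 without knock-in WT replicate 1, 3 or 4 or any 1 of the 4 Q150 HET mice. The shares of all events without these mice are not given here. In Q175 HET mice 0 of 19 passed (0.598% of all events), with medians of -0.01 and 0.04. In Q175 HOMO mice 1 of 19 passed, with higher exclusion (7.07% of all events), with medians of 0.02 and 0.07.

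Of the list events that passed, those with the largest changes had smaller log2 changes than the coding exon of Hnrpdl. In R6/2 HD mice the largest was in an exon of Pcbp2, a poly(C)-binding protein, with an exclusion of 30.0% ± 1.77 against 11.1% ± 1.92 in WT (SD, n = 3 each) and a log2 change of 1.79 ± 0.17 (SE, limma adjusted p = 1.3e-05). An exon of Ptbp2, the neuronal polypyrimidine tract-binding protein, followed with 1.19 ± 0.22 (SE, limma adjusted p = 0.00145), and an exon of Hnrnpa1, a splicing repressor, with 0.72 ± 0.09 (SE, limma adjusted p = 9.5e-05). The Ptbp2 and Hnrnpa1 exons were also among the largest in Q150 HOMO mice. Exclusion of the Ptbp2 exon was 3.28% ± 0.470 (SD, n = 4) against 1.47% ± 0.190 in WT (SD, n = 5), a log2 change of 1.18 ± 0.16 (SE, limma adjusted p = 2.1e-05), and the Hnrnpa1 exon gave 0.66 ± 0.10 (SE, limma adjusted p = 6.2e-05). An exon of Hnrnph3, listed as Hnrph3, gave 0.68 ± 0.13 (SE, limma adjusted p = 0.000576). In Q175 HOMO mice the event that passed was in an exon of Hnrnpk, with an exclusion of 1.23% ± 0.0991 (SD, n = 3) against 0.902% ± 0.0616 in WT (SD, n = 5) and a log2 change of 0.45 ± 0.13 (SE, limma adjusted p = 0.0266). That call was lost without knock-in WT replicate 9, Q175 HOMO replicate 1 or Q175 HOMO replicate 3 (limma adjusted p = 0.0678, 0.160 and 0.0848), with all 10 knock-in WT mice as controls (limma adjusted p = 0.765, log2 change 0.13), with no variance trend (0.0855) and with each mouse centred on its median event (0.0597).

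Hnrnpd, a paralogue of Hnrnpdl on the same chromosome, was singled out after its values were seen, because its event 7776 falls by the same offset on the matching coding exon (chr5:99963731-99963877, GRCm38, minus strand, 147 bases, with 14 tyrosine codons among 48 whole codons). Its exclusion ran from 66.5% to 66.7% in R6/2 WT and from 60.1% to 64.9% in HD mice (n = 3 each), a log2 change of -0.29 ± 0.09 (SE, limma adjusted p = 0.0323), opposite in sign to the coding exon of Hnrpdl. In Q150 HOMO mice it was 61.7% ± 1.11 (SD, n = 4) against 65.0% ± 1.18 in WT (SD, n = 5), a log2 change of -0.20 ± 0.07 (SE, limma adjusted p = 0.0472). Q175 HOMO mice, at 63.4% ± 0.832 (SD, n = 3) against 63.9% ± 1.25 (SD, n = 5), gave -0.03 ± 0.08 (SE, limma adjusted p = 0.880). HET mice had values of the same sign that did not pass, -0.20 ± 0.07 in Q150 (61.8%, SE, limma adjusted p = 0.136) and -0.14 ± 0.08 in Q175 (61.7%, SE, limma adjusted p = 0.545). These calls were near the threshold. When 1 mouse was left out, the R6/2 call was kept in 1 of 6 cases, without HD mouse 860, and the Q150 HOMO call in 3 of 13 cases, without knock-in WT replicate 5, Q150 HET replicate 4 or Q150 HOMO replicate 3 (limma adjusted p up to 0.124 and 0.122). Both calls were lost with no variance trend (limma adjusted p = 0.226 and 0.195), and the Q150 HOMO call also with only the compared groups in the fit (0.0656) and with all 10 knock-in WT mice (0.0540).

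**Figure D5:**
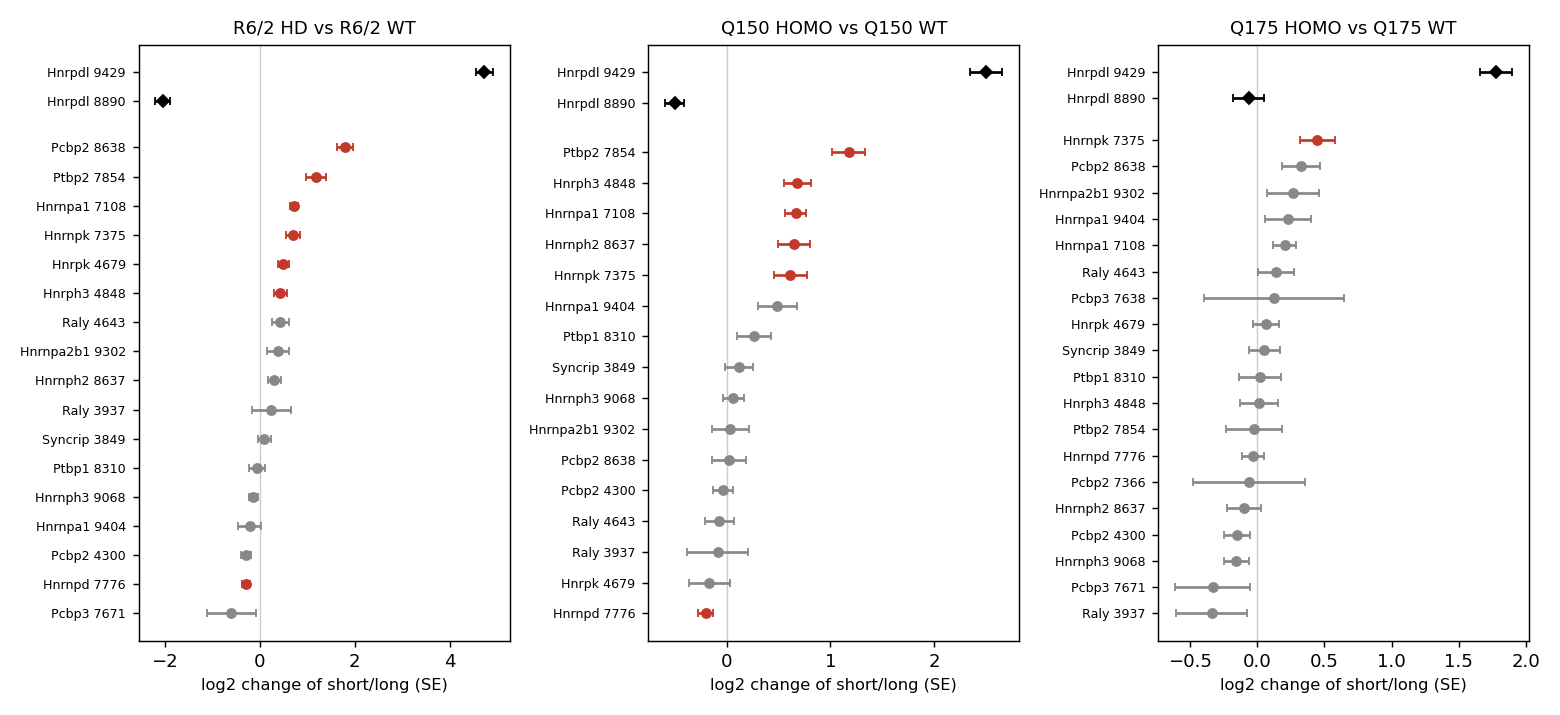
Log2 change of short over long, with SE, for the events of the hnRNP list in R6/2 HD, Q150 HOMO and Q175 HOMO mice against the WT mice of the set (red, limma adjusted p under 0.05; grey, others), with the 2 Hnrpdl events in black at the top, shown without a test. The x axes differ. The coding exon of Hnrpdl lies at 4.72, 2.50 and 1.78, beyond each list event, of which the highest are 1.79, 1.18 and 0.45.

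Events with the pattern most like each Hnrpdl event were found over the 31 mice among 1662 events listed in all sets, by Pearson's r of log2 short over long minus the WT mean of the set. The mice share groups and libraries, so r is a description. For the coding exon the 4 highest were exons of Gripap1, a regulator of glutamate receptor recycling (r = 0.97), Ahi1, a protein of the primary cilium (0.97), Rbbp6, a ubiquitin ligase (0.96), and Acss2, an acetyl-CoA synthetase (0.96). Their log2 changes in R6/2 HD mice ran from 1.62 to 2.27 and in Q150 HOMO mice from 0.57 to 1.42. Among the lowest was an exon of Gse1 (-0.92), with a log2 change of -1.67 ± 0.14 (SE) in R6/2 HD mice. Exclusion of the Gripap1 exon was 10.3% ± 0.419 in R6/2 WT and 31.5% ± 1.23 in HD mice (SD, n = 3 each), and 11.7%, 15.9% and 22.2% in Q150 WT, HET and HOMO mice. In the Q175 set it was 9.29%, 9.91% and 14.2%, and HET mice overlapped WT (log2 change 0.10 ± 0.09, SE), which they did not for the coding exon of Hnrpdl. Exclusion of the Ahi1 exon likewise did not overlap between the Q175 genotypes. It ran from 25.8% to 30.5% in WT, from 32.3% to 37.2% in HET and from 38.2% to 45.8% in HOMO mice.

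For the 3′UTR exon the highest were exons of Fam49b (now Cyrib; r = 0.93), Os9, a lectin of the endoplasmic reticulum (0.90), Ankrd15 (now Kank1; 0.85), mKIAA0858 (now Lmo7; 0.84) and Atp2b3, a calcium pump of the plasma membrane (0.83). Their log2 changes in R6/2 HD mice ran from -2.23 to -0.62, and in Q150 HOMO mice from -0.27 to -0.02, beside -0.50 for the 3′UTR exon itself. The lowest were exons of BC042720 (-0.93) and Celf4, an RNA-binding protein of neurons (-0.92). The 2 Hnrpdl events had r = -0.83 with each other over the 31 mice, group differences included. By that value the 3′UTR exon was number 10 from the bottom among the events set against the coding exon.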

How the data were processed

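RASL-seq had been run by the authors on RNA from the cortex of 31 mice, 1 library per mouse, with RNA bound to oligo(dT) beads before ligation. The files deposited by the authors hold, as unit other, short and long junction counts for each event, whole numbers with no normalization, written with commas as digit separators that were removed here. Because of the commas they were not treated as plain counts, and no count model was the main test. The aligner is not given in the sources used here, and the submitters' processing notes name mm10. Groups came from the labels, the knock-in line from the glutamine numbers, since titles and genotype fields disagree on it, and the 10 knock-in WT mice were split by which events their files list (replicates 1 to 5 in the Q150 set, 6 to 10 in the Q175 set). Numbers of HOMO mice follow the labels, which differ from the methods text. Replicates are separate mice.

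Per set, log2((short + 0.5) / (long + 0.5)) was fitted with group means, all mice and events together, by limma 3.58.1 in R 4.3.3, with variances moderated on a trend in the counts and p-values adjusted by Benjamini-Hochberg over all events. A mean of 10 counts was required, which removed 0 events. Intervals are exact binomial (95%). Tests were tried on simulated data. Exons were matched in GENCODE M21 and sequences read from RefSeq GRCm38.p6. The members and lists were chosen with earlier results of these data known. Named genes were both Hnrpdl events, up to 3 list events with the largest change past the threshold in R6/2 HD, Q150 HOMO and Q175 HOMO mice, and for each Hnrpdl event the 5 events with the highest and the 2 with the lowest r. Some items that the rule or the marker list would name are not reported here and were left out of the marker sums. Alternatives were a pseudocount of 5 or none, centring, other samples in the fit, the series of mouse numbers as a term, a quasi-binomial model, other count minimums, no variance trend, and leaving out each mouse. Figures were drawn with matplotlib 3.10.9.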

Additional observations from a re-analysis of the deposited data

How the results depend on the processing

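Across 27 results and 337 alternative values, 320 stayed on their side of the threshold or moved by less than the spread between mice. The sign changed, within that spread, in 3 values of the 3′UTR exon that lay near 0: Q150 HET against WT (-0.01, up to 0.05 without Q150 HET replicate 3), Q175 HOMO against WT (-0.06, up to 0.07 with the series of mouse numbers as a term) and the series difference (0.05, -0.01 without Q150 HET replicate 4). Of the Hnrpdl log2 changes, that of the coding exon against WT was 1.03 in Q175 HET and 2.03 in Q175 HOMO mice with all 10 knock-in WT mice as controls. With the series of mouse numbers as a term it was 1.95 in Q175 HOMO mice against WT and 1.29 against HET, and that of the 3′UTR exon in Q175 HOMO against HET mice was -0.11 in place of -0.34. With each mouse centred on its median event the 3′UTR exon gave -0.70 in Q150 HOMO mice, and the coding exon -0.31 between the series of mouse numbers, now with a limma adjusted p of 0.0476. Leaving out 1 mouse gave 0.43 to 0.57 for the coding exon between the WT sets and -0.39 to -0.22 between the series. Without the variance trend the hnRNP events that passed were 4 in R6/2 HD, 1 in Q150 HET and 0 in Q175 HOMO mice, and with centring 1 in Q150 HET and 0 in Q175 HOMO mice. The shares of all events under these settings are not given here. The cause of these shifts was not tested. No paired analysis was possible because the groups compared share no mouse number. In 20 checks for a mouse far from the rest of its group (exclusion and CPM of both events in each group of 4 or 5 mice), 0 mice stood out. Counting error of single mice reached at most 1.07, 0.588 and 0.447 percentage points for the coding exon in the R6/2, Q150 and Q175 sets and 1.25, 0.802 and 0.705 for the 3′UTR exon, and the number of mice per group limits the comparisons.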
